A study of Rattus norvegicus with 12 samples.

Results

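Genes of the rat spinal dorsal horn were examined for a response to clozapine-N-oxide (CNO) that differed between the superficial layer (laminae I-II) and the deep layer (laminae III-VI). All 12 libraries of the study entered the comparison, and 13745 of the 32623 annotated genes had enough counts to be tested. The genes tested were not chosen by their response. The rats were OT-hM3Dq-mCherry transgenic rats aged 8 weeks, bred on a Wistar background, which carry hM3Dq-mCherry under the oxytocin promoter. hM3Dq is a designer receptor that excites the neurons carrying it when CNO binds, here the oxytocin neurons of the hypothalamus. The rats received CNO subcutaneously at 1 mg/kg or Saline, and 120 min later the dorsal horn at L5 was cut out by laser microdissection, the layers going into separate tubes. The 4 groups were I-II CNO, I-II Saline, III-VI CNO and III-VI Saline, with 3 libraries each. Every group carried the transgene, and no library came from CNO-treated rats without it, so CNO acting through the receptor and CNO acting by other routes cannot be told apart. A rat was taken to be the pair of libraries with the same treatment and replicate number, which the labels do not state outright, giving 3 CNO rats and 3 Saline rats.

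The dorsal horn receives touch, itch, temperature and pain signals from the body. Laminae I and II take in most fine pain and temperature fibres and are packed with small neurons that use peptides such as somatostatin and substance P. Laminae III to VI receive thicker touch and muscle fibres and hold larger neurons with thick axons, whose shafts are stiffened by neurofilaments and which tend to fire fast. Oxytocin fibres descend from the paraventricular nucleus to the dorsal horn and are known for dampening pain signals there. At the edge of laminae I-II lie the dorsal root entry zone, where Schwann cell myelin gives way to central myelin, and the meninges, whose fibroblasts make collagen and retinoic acid.

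Each value below is a count scaled to a common library size by the trimmed mean of M values (TMM), in CPM, and library totals ran between 5245952 and 7889953 counts. The interaction is the CNO minus Saline log2 difference in laminae I-II minus that in laminae III-VI, so a positive value means that the CNO effect was higher in laminae I-II. It was tested for every gene with edgeR's quasi-likelihood test, with each rat as a block, and a gene was called at a Benjamini-Hochberg adjusted p under 0.05. Between the layers 8462 genes (61.6%) differed, 4235 higher in laminae I-II and 4227 higher in laminae III-VI. Scaled by library totals alone, the split was 6515 against 2533, with the median layer difference of all genes at 0.19 on the log2 scale rather than 0.02. The library codes of the Saline 2 pair cross the order of the other pairs, but superficial marker genes summed to 1755 CPM in I-II Saline 2 and 462 CPM in III-VI Saline 2, on the sides the labels give. The library I-II Saline 3 stood apart in markers of Schwann cells and fibroblasts, and values without that rat are given for Pmp22, Dcn, Col1a1 and Lum.

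The CNO effect differed between the layers for 59 genes (0.429% of those tested). It was lower in laminae I-II for 39 genes (0.284%) and higher for 20 (0.146%), and scaling by library totals alone gave 25 lower and 28 higher. The lower side held 3 neurofilament genes, 3 genes of peripheral myelin and 4 of fibroblasts and meninges. The higher side held Sst and Ebf3 of the superficial neurons and Slc1a3 of the astrocytes. The gene lists used here and below were chosen with earlier results of these data known. A list's share of calls beside that of all genes is therefore a description, not independent support. The size of a called interaction lay between 0.25 and 4.52 on the log2 scale, with 31 genes under 1.5-fold and 16 over 2-fold. For all 59 genes the 3 CNO rats and the 3 Saline rats did not overlap in their layer difference, which held for 14.4% of all genes tested (7.71% with CNO rats higher and 6.7% with CNO rats lower).

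These calls rest on the rat as a block. At an unadjusted p under 0.05 stood 9.26% of all genes tested, 4.77% with the CNO effect higher in laminae I-II and 4.5% with it lower. Without the block, 2 genes were called (0.0146%), Fgf1 and Fstl1, and all 59 had an unadjusted p under 0.05 (5.49% of all genes tested). With the rat as a random effect in limma-voom, added after the data were seen, 3 genes were called. DESeq2 with the block called 23 genes. It called 21 of the 59 and missed 7, and for 31 it gave no adjusted p, while 58 of the 59 had an unadjusted p under 0.05. Leaving out CNO rat 2 left 16 of the 59 called and leaving out CNO rat 3 left 13, while leaving out any other rat left 36 to 42. A group of 12 genes kept the call whichever rat was left out, and these 12 also kept it in every alternative that used the rat as a block or took differences within a rat and that gave an adjusted p. For Nefm, Sst, Itih3 and Hpcal4 that was all 13 such alternatives. None of the 59 changed sign in any of the 15 alternatives, where DESeq2 was compared only for the 28 genes with an adjusted p.

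**Figure D1:**
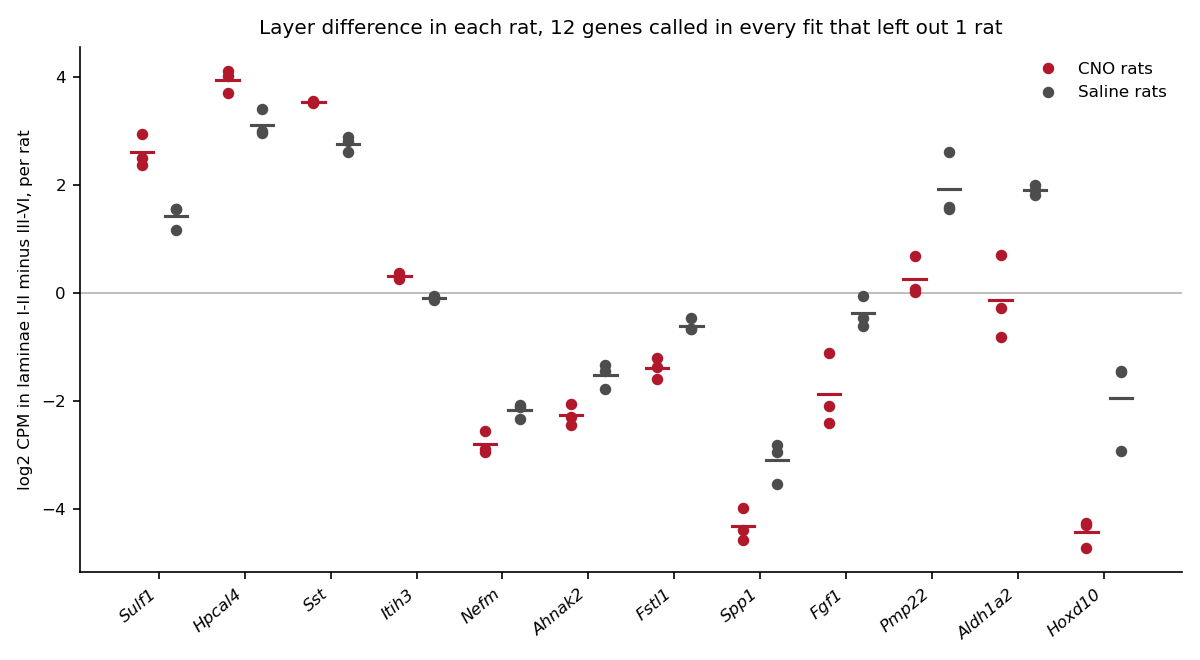
Layer difference (log2 CPM in laminae I-II minus that in laminae III-VI of the same rat, vertical axis) of the 12 genes that kept the call whichever rat was left out, with 1 point per rat and lines at group means. CNO rats lie above Saline rats for Sulf1, Hpcal4, Sst and Itih3 and below them for the other 8 genes, without overlap.

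Most called genes did not stand out in either layer alone. When each layer was tested by itself with edgeR, CNO changed 19 of 13344 genes in laminae I-II (0.142%), 4 up and 15 down, and 18 of 13117 genes in laminae III-VI (0.137%), 11 up and 7 down. Of the 59 interaction genes, 45 were called in neither layer. The CNO effect was below 0 in laminae I-II and above 0 in laminae III-VI for 32 of the 59, and above 0 and below 0 in the same order for 20. Across all genes tested these sign patterns held for 20.7% and 23.4%. Hoxd10 and C3, the central component of complement, were the only genes called in both layers.

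**Figure D2:**
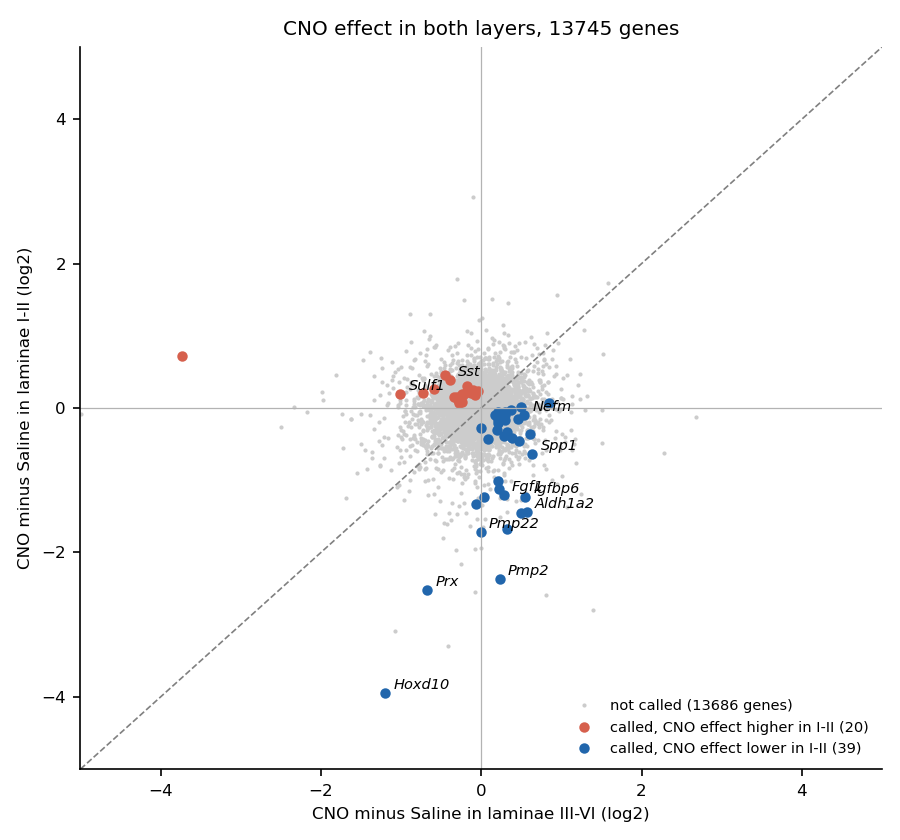
CNO minus Saline log2 difference of each of 13745 genes in laminae I-II (vertical axis) against that in laminae III-VI (horizontal axis), with called genes coloured and the dashed line marking equal effects. Most of the 39 blue genes lie below 0 on the vertical axis and above 0 on the horizontal one, and 4 uncalled genes fall outside the axes.

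Of 5 neurofilament genes 3 were called, with a CNO effect that was lower in laminae I-II. Neurofilaments are the intermediate filaments that set the calibre of thick axons. Nefm, encoding the medium chain (chr15:44855310-44860604 in Rnor 6), measured 1244, 984 and 1245 CPM in CNO rats, against 1268, 971 and 1478 CPM in Saline rats, in laminae I-II, where the groups overlapped. Its deep values were 7315, 7561 and 9172 CPM in CNO rats, against 5484, 4894 and 6228 CPM in Saline rats, and all 3 CNO rats lay above all 3 Saline rats. The layer difference of Nefm was -2.79 ± 0.21 in CNO rats, against -2.17 ± 0.14 in Saline rats (SD, n = 3 rats each), an interaction of -0.62 (SE 0.08, 95% interval -0.78 to -0.46, adjusted p = 0.000134). The CNO effect was -0.11 (adjusted p = 0.884) in laminae I-II and 0.53 (adjusted p = 0.0109) in laminae III-VI.

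The other chains followed the same course. Nefl, encoding the light chain (chr15:44799334-44804574), measured 5486, 5449.6 and 6121 CPM in CNO rats, against 4273, 4042 and 4834 CPM in Saline rats, in laminae III-VI, and its interaction was -0.41 (SE 0.07, adjusted p = 0.00382). Nefh, encoding the heavy chain (chr14:85181572-85191557), measured 896, 675 and 818 CPM in CNO rats, against 813, 647 and 904 CPM in Saline rats, in laminae I-II, where the groups overlapped. Deep libraries gave it 4312, 4609.9 and 5303 CPM in CNO rats, against 3343, 2997 and 3715 CPM in Saline rats, with an interaction of -0.48 (SE 0.09, adjusted p = 0.0067). Both genes were higher in every CNO rat than in every Saline rat in laminae III-VI. All 5 members of the neurofilament list had an unadjusted p under 0.05 and an interaction below 0, as had 4.5% of all genes tested. The remaining members, Prph and Ina, had interactions of -0.59 and -0.23 and were not called. Prph, the neurofilament of peripheral and motor axons, was nevertheless called in laminae III-VI alone, where the CNO effect was 0.81 (adjusted p = 0.0294). Without CNO rat 2, the adjusted p was 0.00791 for Nefm, 0.0857 for Nefl and 0.151 for Nefh, and without CNO rat 3 it was 0.00766 for Nefm, 0.0717 for Nefl and 0.125 for Nefh.

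Genes for fast spiking and fast release lay on the same side. Of 16 such genes tested, 15 had an interaction below 0, 10 of them with an unadjusted p under 0.05, and 2 were called. Of all genes tested, 4.5% had an unadjusted p under 0.05 on this side and 0.284% were called on it. The list median was -0.19, against 0.01 for all genes tested. These genes were mostly more abundant in laminae III-VI (median layer difference -1.55). Of all layer genes higher there, 66.4% had an interaction below 0. Syt2, a called gene that encodes the calcium sensor of fast synapses, measured 889, 828 and 922 CPM in CNO rats, against 702, 758 and 809 CPM in Saline rats, in laminae III-VI, where every CNO rat was above every Saline rat, and its interaction was -0.38 (SE 0.08, adjusted p = 0.0244). Kcna1, Scn4b and Cplx1 had values of -0.36, -0.33 and -0.23 without being called, and Pvalb, the calcium buffer that marks many such cells, stood at 0.22. The Syt2 call was lost without CNO rat 2, CNO rat 3 or Saline rat 3.

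The list of general neuronal genes held 5 called genes of 16, all lower, namely Nefm, Nefl, Nefh, Stmn2 and Tubb3. Of all genes tested, 0.284% were called lower. Thy1, a membrane glycoprotein of neurons, was called by DESeq2 (-0.27, adjusted p = 0.026), by limma-voom with the block and with RLE factors, but not by edgeR with TMM. Stmn2, a regulator of microtubules in growing axons, measured 161, 164 and 178 CPM in CNO rats, against 189.9, 178 and 198 CPM in Saline rats, in laminae I-II. The values in laminae III-VI were 319, 329 and 328 CPM in CNO rats, against 266, 302 and 279 CPM in Saline rats. CNO rats were higher than Saline rats in the deep layer without overlap. In the superficial layer they were lower, but CNO rat 3 (177.6 CPM) and Saline rat 2 (177.68 CPM) were all but level. The interaction was -0.38 (SE 0.07, adjusted p = 0.0157). The Stmn2 call was lost without any 1 CNO rat or Saline rat 3, at an adjusted p of up to 0.151. Summed over the 16 genes, neuronal markers ranged from 9618 to 10910 CPM in CNO rats and from 9892 to 10820 CPM in Saline rats in laminae I-II. In laminae III-VI they ranged from 26680 to 30460 CPM in CNO rats and from 21290 to 23820 CPM in Saline rats. Most of this deep-layer sum came from Nefl, Nefm and Nefh. Without these genes, a sum added after the data were seen, the other 13 totalled 9568, 9262 and 9869 CPM in III-VI CNO libraries, against 9191, 9358 and 9048 CPM in III-VI Saline libraries, and the groups overlapped. In such bulk samples fewer cells of a type and less RNA per cell cannot be told apart.

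Spp1 (osteopontin), a secreted phosphoprotein, ranked next to Pmp22 among all genes. Spp1 (chr14:6673686-6679901) measured 15.7, 9.36 and 15.6 CPM in CNO rats, against 19.9, 11.1 and 32.3 CPM in Saline rats, in laminae I-II. In laminae III-VI it measured 252, 229 and 334 CPM in CNO rats, against 141, 132 and 250.4 CPM in Saline rats. The groups overlapped within each layer. The layer difference was -3.98, -4.57 and -4.39 in CNO rats, against -2.81, -3.54 and -2.94 in Saline rats, without overlap. The interaction was -1.27 (SE 0.16, 95% interval -1.59 to -0.94, adjusted p = 0.000134), and it stayed between -1.44 and -1.16 when any rat was left out. Without the rat block its adjusted p was 0.72.

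**Figure D3:**
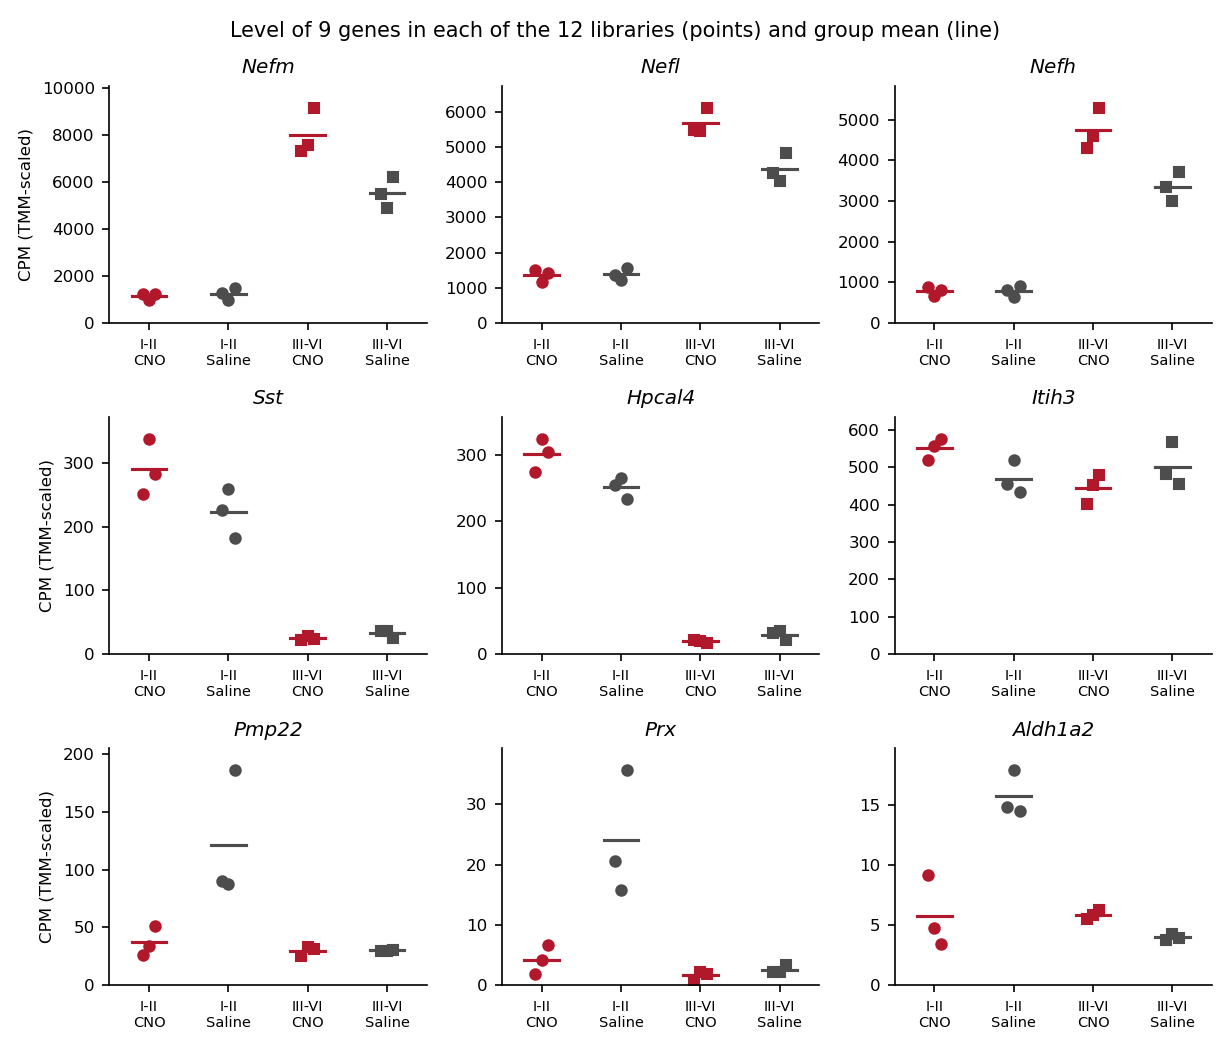
CPM of 9 genes (vertical axes, each starting at 0) in the 4 groups, with 1 point per library and a line at the group mean. The neurofilament genes Nefm, Nefl and Nefh are higher in III-VI CNO than in III-VI Saline libraries, Sst, Hpcal4 and Itih3 have higher means in I-II CNO than in I-II Saline libraries, and Pmp22, Prx and Aldh1a2 are lower in I-II CNO than in I-II Saline libraries.

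Among genes with a CNO effect higher in laminae I-II, Sst had the smallest p. Sst encodes somatostatin, the peptide of a large class of excitatory lamina II neurons. Sst (chr11:80358211-80359444) measured 252, 339 and 283 CPM in CNO rats, against 226, 259.5 and 183 CPM in Saline rats, in laminae I-II. Its deep values were 21.7, 28.7 and 24.2 CPM in CNO rats, against 36.7, 36.9 and 24.6 CPM in Saline rats. Neither layer separated the groups fully, and the CNO effect was 0.38 (adjusted p = 0.357) in laminae I-II and -0.40 (adjusted p = 0.397) in laminae III-VI. The layer difference was 3.52, 3.54 and 3.53 in CNO rats, against 2.61, 2.80 and 2.88 in Saline rats. The CNO rats lay within 0.02 of each other and above every Saline rat, with an interaction of 0.78 (SE 0.10, 95% interval 0.58 to 0.99, adjusted p = 0.000134). No left-out rat moved it below 0.69 or above 0.83.

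Hpcal4, a neuronal calcium sensor, behaved alike. It measured 275, 325 and 305 CPM in CNO rats, against 255, 266 and 233 CPM in Saline rats, in laminae I-II. Deep libraries gave it 20.9, 19.7 and 17.4 CPM in CNO rats, against 31.8, 33.97 and 21.8 CPM in Saline rats. CNO rats were higher in the superficial layer and lower in the deep layer, each time without overlap, and the interaction was 0.85 (SE 0.13, 95% interval 0.59 to 1.10, adjusted p = 0.000798). Ebf3, a transcription factor of excitatory dorsal horn neurons, measured 309, 347 and 311 CPM in CNO rats, against 306, 301 and 264 CPM in Saline rats, in laminae I-II. In the deep layer it had 32.2, 34.7 and 31.4 CPM in CNO rats, against 40.9, 45.5 and 35.7 CPM in Saline rats, also apart in both layers, with an interaction of 0.46 (SE 0.09, adjusted p = 0.0157). The call of Ebf3 was lost without CNO rat 2, CNO rat 3 or Saline rat 2, with adjusted p up to 0.116.

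Gria2 and Scn2a were called on the same side. Gria2, the AMPA receptor subunit that keeps calcium out, measured 1094, 1066 and 1079.9 CPM in CNO rats, against 1065, 1055 and 935 CPM in Saline rats, in laminae I-II. The values in laminae III-VI were 267, 258 and 260.0 CPM in CNO rats, against 326, 322 and 278 CPM in Saline rats. The groups were apart in both layers, the layer difference was 2.03, 2.04 and 2.05 in CNO rats, against 1.71, 1.71 and 1.75 in Saline rats, and the interaction was 0.32 (SE 0.06, adjusted p = 0.0056). Scn2a, a sodium channel of thin axons, had layer differences of 1.44, 1.68 and 1.74 in CNO rats, against 1.18, 1.18 and 1.18 in Saline rats and an interaction of 0.44 (SE 0.08, adjusted p = 0.00589). Gria2 lost its call without CNO rat 3 only, at an adjusted p of 0.0717, and Scn2a without CNO rat 2 or CNO rat 3, at up to 0.105. Further called genes of the same side were the calcium channel gene Cacna1e (0.36), the sodium channel subunit Scn3b (0.40), the release factors Cadps2 (0.49) and Unc13c (0.28), the peptide-processing enzyme Pam (0.32), Marcks (0.40), Hap1 (0.35) and Pitpnm3 (0.48). All 8 were more abundant in laminae I-II than in laminae III-VI. Of the 6 fits that left out 1 rat, the call held in 5 for Pam and in 4 for Cacna1e. It held in 2 for Scn3b, Cadps2, Marcks and Hap1 and in 1 for Unc13c and Pitpnm3, with adjusted p up to 0.336.

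The superficial marker list as a whole was not uniform. Of its 18 genes, 12 had an interaction above 0 and 6 below, 2 were called (Sst and Ebf3), and the median was 0.35. Among all genes tested, 51.2% had an interaction above 0 and 0.146% were called on that side. Tac3, which encodes neurokinin B, had a value of 0.99 and was not called. Tac1, the substance P precursor, stood at -0.08, Grp at -0.21 and the opioid receptor Oprm1 at -0.35 (unadjusted p = 0.0169). Inhibitory neuron genes gave 0 calls of 16 with edgeR, with 5 at an unadjusted p under 0.05, all above 0. These 5 made up 31.2% of the list, against 4.77% of all genes tested on that side. Gad1 and Gad2, the enzymes that make GABA, had interactions of 0.20 and 0.22 (adjusted p = 0.316 and 0.337). Slc32a1, the vesicle transporter of GABA and glycine, was at -0.16 (adjusted p = 0.57), and Pax2, the transcription factor of inhibitory neurons, at -0.14, a value that turned to 0.05 without CNO rat 2. Glra1, the adult glycine receptor subunit, was called at -0.34 (SE 0.07, adjusted p = 0.0175), measuring 592, 611 and 636 CPM in CNO rats, against 458, 499 and 565 CPM in Saline rats, in laminae III-VI. CNO rats lay above Saline rats there, and the 5 other genes of that list were not called, including Glra2 at 0.48. The Glra1 call was lost without CNO rat 2 or CNO rat 3.

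The layers as a whole were further apart in CNO rats. Of the 8462 genes that differed between layers, the CNO rats' layers were further apart than the Saline rats' for 5743 (67.9%), against 8594 of all 13745 genes tested (62.5%) and 59% of the 9952 genes with a layer difference under 0.5 on the log2 scale. Of the 55 called genes among the layer genes this held for 48 (87.3%). On the deep side this held for 31 of 32 called genes (96.9%), against 66.4% of all layer genes higher in laminae III-VI. On the superficial side it held for 17 of 23 (73.9%), against 69.4% of all layer genes higher in laminae I-II. Over the 18 superficial markers the mean layer difference was 3.22, 3.27 and 3.15 in CNO rats, against 2.93, 2.87 and 2.96 in Saline rats. Over the 15 deep markers it was -1.70, -1.91 and -1.74 in CNO rats, against -1.62, -1.64 and -1.40 in Saline rats. The distance between both marker sets was 5.00 ± 0.16 in CNO rats and 4.47 ± 0.10 in Saline rats (SD, n = 3 rats each), a difference of 0.53. The groups did not overlap on any of these measures, and the exact two-sided permutation test gave p = 0.1 for each, the smallest value that 3 against 3 rats allow. Summed in CPM, however, the 18 superficial markers overlapped between the groups in each layer. In laminae I-II they totalled 1716, 2051 and 1873 CPM in CNO rats, against 1709, 1755 and 1475 CPM in Saline rats. In laminae III-VI the sums were 617, 514 and 641 CPM in CNO rats, against 482, 462 and 684 CPM in Saline rats. Sums of the deep markers overlapped in laminae I-II but not in laminae III-VI (18130 to 21160 CPM in CNO rats, 13570 to 16150 CPM in Saline rats). The distance is the superficial mean minus the deep mean, so it is not a separate result. The marker lists were chosen with earlier results of these data known, and they hold the called genes Sst, Ebf3, Nefm, Nefh and Syt2.

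Measures over all 8462 layer genes, taken from the same layer differences, went the same way. The slope of a rat's layer differences on the mean of the other 5 rats was 1.01, 1.05 and 1.08 in CNO rats, against 0.893, 0.848 and 0.953 in Saline rats. That mean held more Saline rats for a CNO rat and more CNO rats for a Saline rat, which enlarges any gap between the groups. The median absolute layer difference was 0.448, 0.474 and 0.478 in CNO rats, against 0.401, 0.394 and 0.414 in Saline rats. The share of layer genes further apart in CNO rats stayed between 65.3% and 69.0% when any rat was left out.

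**Figure D4:**
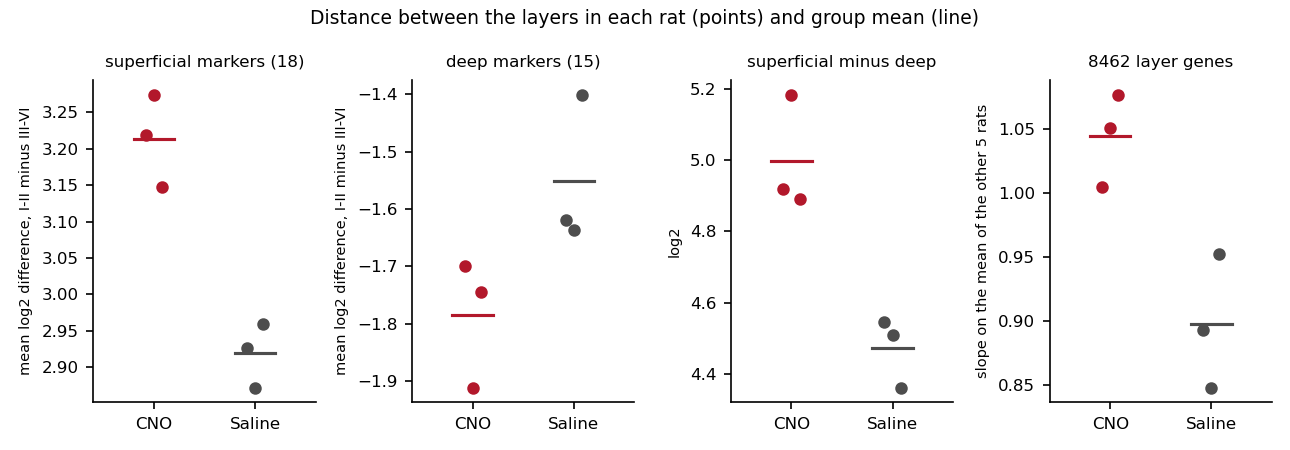
Distance between the layers in each rat (points) with group means (lines), from left to right as the mean layer difference of 18 superficial markers, of 15 deep markers, the distance between both, and the slope over 8462 layer genes. CNO rats sit at 4.89 to 5.18 in the distance between marker sets and Saline rats at 4.36 to 4.55, and the axes do not start at 0.

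Astrocyte genes lay on the higher side. All 14 tested had an interaction above 0 (51.2% of all genes did), with a median of 0.13. With edgeR, 1 was called (7.14% of the list, against 0.146% of all genes tested on this side). That gene was Slc1a3, the glutamate transporter GLAST. It measured 308, 349 and 299 CPM in CNO rats, against 278, 307 and 236 CPM in Saline rats, in laminae I-II. In laminae III-VI it measured 208, 212 and 204 CPM in CNO rats, against 239.6, 236 and 225 CPM in Saline rats. The groups were apart in the deep layer only, and the interaction was 0.39 (SE 0.07, adjusted p = 0.0107). It was lost without CNO rat 2, CNO rat 3 or Saline rat 3. edgeR did not call Gfap, the astrocyte filament, at 0.31, the water channel gene Aqp4 at 0.24, or Agt, angiotensinogen, at 0.27 (adjusted p = 0.0561). limma-voom with the block called all 3, at adjusted p of 0.0454 for Gfap, 0.0458 for Aqp4 and 0.0368 for Agt, which made 4 of the 14 with Slc1a3. Scaling by library totals alone gave 3 of 14, adding Gfap and Agt, and DESeq2 gave 1.

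Itih3, a stabiliser of hyaluronan in the extracellular matrix, was called on the same side. It measured 520.0, 557 and 577 CPM in CNO rats, against 457, 519 and 434 CPM in Saline rats, in laminae I-II. Its deep values were 402, 452 and 480.1 CPM in CNO rats, against 482, 569 and 454 CPM in Saline rats. CNO rats were above Saline rats in laminae I-II and overlapped with them in laminae III-VI. The layer difference was 0.37, 0.30 and 0.27 in CNO rats, against -0.08, -0.13 and -0.06 in Saline rats, above 0 in every CNO rat and below 0 in every Saline rat. The interaction was 0.40 (SE 0.06, 95% interval 0.28 to 0.52, adjusted p = 0.000462), and its adjusted p was at most 0.00791 whichever rat was left out.

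Of the peripheral myelin genes, Pmp22, Prx and Pmp2 were called, with a CNO effect lower in laminae I-II. Pmp22, a membrane protein of compact Schwann cell myelin (chr10:49538588-49568583), measured 26.3, 33.5 and 50.9 CPM in CNO rats, against 90.3, 87.8 and 187 CPM in Saline rats, in laminae I-II. Deep libraries gave it 24.99, 33.2 and 31.4 CPM in CNO rats, against 29.6, 29.9 and 30.5 CPM in Saline rats. The superficial groups were apart and the deep groups were level. The CNO effect was -1.73 (adjusted p = 0.00152) in laminae I-II and -0.01 (adjusted p = 0.987) in laminae III-VI, and the interaction was -1.68 (SE 0.21, 95% interval -2.11 to -1.26, adjusted p = 0.000134), the smallest p of all genes. Without Saline rat 3 it was -1.28.

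Prx (periaxin), which ties Schwann cells to their basal lamina, measured 1.75, 4.14 and 6.59 CPM in CNO rats, against 20.6, 15.7 and 35.8 CPM in Saline rats, in laminae I-II. In the deep layer it had 0.786, 2.17 and 1.90 CPM in CNO rats, against 2.13, 2.23 and 3.36 CPM in Saline rats, with an interaction of -1.86 (SE 0.39, adjusted p = 0.0315). Pmp2, a lipid carrier of peripheral myelin, measured 1.46, 0.614 and 3.87 CPM in CNO rats, against 8.06, 9.41 and 13.8 CPM in Saline rats, in laminae I-II, with an interaction of -2.60 (SE 0.55, adjusted p = 0.0318). Of 9 Schwann cell genes tested these 3 were called, all lower (33.3% of the list, against 0.284% of all genes tested). In the list 7 had an unadjusted p under 0.05, against 9.26% of all genes tested, and the median was -1.69. limma-voom with the block called 3 of the list. DESeq2 called 0 of it and gave no adjusted p for Pmp22, Prx and Pmp2. Drp2 and Gldn stood at 0.09 and 0.15. The call of Prx was lost without any 1 CNO rat or Saline rat 3 (adjusted p up to 0.302) and that of Pmp2 without CNO rat 2, CNO rat 3, Saline rat 2 or Saline rat 3 (up to 0.214), while Pmp22 was called whichever rat was left out.

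Of the fibroblast and meningeal genes, Aldh1a2, Dcn, Col1a1 and Lum were called on the same side. Aldh1a2, the enzyme that makes retinoic acid in the meninges, measured 9.17, 4.76 and 3.44 CPM in CNO rats, against 14.9, 17.97 and 14.5 CPM in Saline rats, in laminae I-II. The values in laminae III-VI were 5.50, 5.85 and 6.28 CPM in CNO rats, against 3.72, 4.29 and 3.92 CPM in Saline rats. CNO rats were lower in the superficial layer and higher in the deep layer, each without overlap. The interaction was -2.03 (SE 0.32, 95% interval -2.70 to -1.36, adjusted p = 0.00192), and it was called whichever rat was left out. Dcn, the collagen-binding proteoglycan decorin, measured 6.55, 9.82 and 11.3 CPM in CNO rats, against 14.3, 19.5 and 35.3 CPM in Saline rats, in laminae I-II, with an interaction of -1.23 (SE 0.26, adjusted p = 0.0312). Col1a1, the main chain of type I collagen, measured 29.98, 34.99 and 30.8 CPM in CNO rats, against 27.4, 38.7 and 141 CPM in Saline rats, in laminae I-II, where 141 CPM came from Saline rat 3. Without that rat the interaction of Col1a1 was -0.48 rather than -1.21 (adjusted p = 0.42), that of Dcn was -0.83 (adjusted p = 0.201), and that of Lum was -1.27. Of 17 genes of the list, 4 were called, all lower, the fourth being Lum (-1.87), a proteoglycan like Dcn. In the list 15 had an interaction below 0 and the median was -0.62. Of all genes tested, 0.284% were called lower and 6704 of 13745 had an interaction below 0. limma-voom with the block called 4 of the list, limma on layer differences 2 and library totals alone 2. DESeq2 called 0 of the list and gave no adjusted p for the 4 genes that edgeR called. Without Saline rat 3, Aldh1a2 alone of the 4 remained called, and Dcn, Col1a1 and Lum also lost their calls without any 1 CNO rat. Over the fits that left out 1 rat, the list median ran from -0.88 to -0.51 for fibroblast genes and from -1.40 to -0.92 for Schwann cell genes. Each of these fits was filtered anew, so the list members tested could differ. The Schwann cell median with all rats, -1.69, lay below the range of these fits.

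The library I-II Saline 3 stood apart in the markers of both cell types. Summed Schwann markers were 142, 154 and 211 CPM in I-II CNO libraries, against 372, 341 and 684 CPM in I-II Saline libraries. Summed fibroblast markers were 161, 153 and 164 CPM in I-II CNO libraries, against 178, 214 and 580 CPM in I-II Saline libraries. In laminae III-VI, Schwann markers ranged from 112 to 126 CPM in CNO rats and from 120.1 to 133 CPM in Saline rats. Fibroblast markers there summed to 153, 156 and 138 CPM in CNO rats, against 121, 129 and 155 CPM in Saline rats, and overlapped. In laminae I-II both sums were lower in every CNO library than in every Saline library. The part of Schwann cell and fibroblast content in the results of laminae I-II was not tested. Endothelial markers summed to 507 to 581 CPM in I-II CNO libraries and 535 to 559 CPM in I-II Saline libraries, which overlapped.

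**Figure D5:**
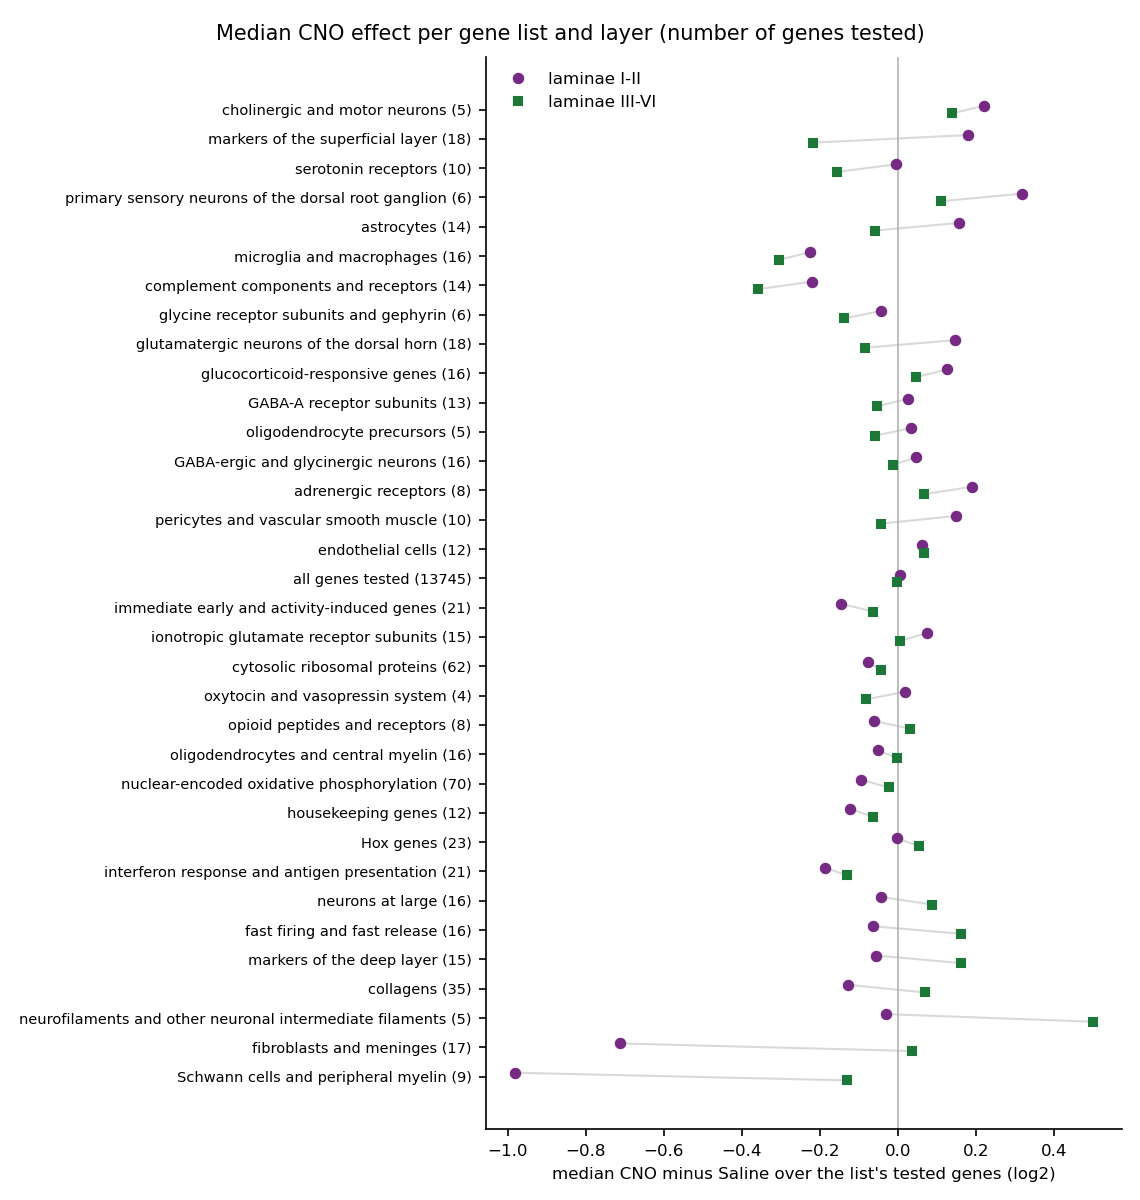
Median CNO minus Saline log2 difference over the tested genes of each list (horizontal axis; number of genes in parentheses) in laminae I-II (circles) and laminae III-VI (squares), ordered by median interaction. Schwann cell genes lie at -0.98 for laminae I-II and -0.13 for laminae III-VI, and neurofilament genes at -0.03 for laminae I-II and 0.50 for laminae III-VI.

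Further genes called on the lower side were Fgf1, Fstl1, Slit2 and Ahnak2. Fgf1, the acidic fibroblast growth factor, measured 25.9, 16.6 and 14.6 CPM in CNO rats, against 53.7, 40.2 and 38.6 CPM in Saline rats, in laminae I-II. In laminae III-VI it measured 56.3, 71.3 and 78.97 CPM in CNO rats, against 55.7, 55.8 and 58.9 CPM in Saline rats. CNO rats were lower without overlap in laminae I-II, where the CNO effect was -1.22 (adjusted p = 0.00152), and the interaction was -1.49 (SE 0.20, 95% interval -1.90 to -1.07, adjusted p = 0.000247). Fstl1, a secreted follistatin-like protein, measured 47.4, 43.3 and 41.6 CPM in CNO rats, against 55.2, 53.1 and 68.6 CPM in Saline rats, in laminae I-II. Its deep values were 109.7, 112 and 126 CPM in CNO rats, against 88.1, 84.6 and 94.9 CPM in Saline rats. It was lower with CNO in the one layer and higher in the other, without overlap, at an interaction of -0.80 (SE 0.10, 95% interval -1.01 to -0.59, adjusted p = 0.000136). Fgf1 and Fstl1 were also called without the rat block, at adjusted p of 0.00954 and 0.0198. Slit2, an axon guidance ligand, was lower in every I-II CNO library, with 74.1, 55.2 and 65.4 CPM in CNO rats, against 88.5, 88.3 and 85.1 CPM in Saline rats, and its interaction was -0.51 (SE 0.09, adjusted p = 0.00664). The Slit2 call was lost without CNO rat 2 or CNO rat 3. Ahnak2, a large scaffold protein, rose in laminae III-VI to 100.3, 147 and 202 CPM in CNO rats, against 84.4, 77.2 and 87.8 CPM in Saline rats, with an interaction of -0.78 (SE 0.12, adjusted p = 0.00156).

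Sulf1 and Myh11 went the other way. Sulf1, which trims sulphate from heparan sulphate chains outside the cell, measured 42.1, 43.3 and 33.7 CPM in CNO rats, against 32.2, 39.7 and 31.98 CPM in Saline rats, in laminae I-II. In laminae III-VI it fell to 7.86, 5.34 and 5.69 CPM in CNO rats, against 14.2, 13.4 and 10.6 CPM in Saline rats. Its interaction was 1.21 (SE 0.19, 95% interval 0.82 to 1.60, adjusted p = 0.0017), and the CNO effect in laminae III-VI was -1.02 (adjusted p = 0.0294). Myh11, the myosin of vascular smooth muscle, measured 41.9, 37.9 and 36.3 CPM in CNO rats, against 30.99, 31.5 and 21.9 CPM in Saline rats, in laminae I-II. Deep libraries gave it 73.4, 44.3 and 56.5 CPM in CNO rats, against 92.5, 65.4 and 80.4 CPM in Saline rats, with an interaction of 0.92 (SE 0.16, adjusted p = 0.00401). Myh11 is more abundant in the deep layer, so its layers came closer together with CNO, unlike most called genes. The other 9 pericyte and smooth muscle genes were not called, with Acta2 at 0.02 and Tagln at 0.75, and the Myh11 call was lost without CNO rat 2 alone (adjusted p = 0.0728).

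Hoxd10 had the lowest interaction of the called genes. Hox genes encode transcription factors that hold a cell's position along the body axis, and Hoxd9 and Hoxd10 are neighbours in the HOXD cluster, active in the lumbar cord. Hoxd10 (chr3:61613774-61617367) measured 3.35, 0.767 and 0.717 CPM in CNO rats, against 32.96, 31.2 and 12.04 CPM in Saline rats, in laminae I-II. In the deep layer it had 69.9, 20.7 and 26.7 CPM in CNO rats, against 89.8, 86.1 and 93.96 CPM in Saline rats. CNO rats lay below Saline rats in both layers. The CNO effect was -3.96 (adjusted p = 0.000132) in laminae I-II and -1.21 (adjusted p = 0.0396) in laminae III-VI. On the log2 scale the fall was larger in laminae I-II, with an interaction of -2.74 (SE 0.39, 95% interval -3.54 to -1.94, adjusted p = 0.000454). In CPM the means fell from 25.4 to 1.61 in laminae I-II and from 90.0 to 39.1 in laminae III-VI. The I-II CNO values of 0.767 and 0.717 CPM rest on few reads. Hoxd9 (chr3:61620192-61622359) measured 6.26, 2.30 and 3.15 CPM in CNO rats, against 8.06, 11.5 and 8.08 CPM in Saline rats, in laminae I-II. The values in laminae III-VI were 20.6, 18.4 and 15.2 CPM in CNO rats, against 18.9, 20.8 and 13.6 CPM in Saline rats. It was apart in the superficial layer only, with an interaction of -1.26 (SE 0.26, adjusted p = 0.0278), a call lost without CNO rat 2, CNO rat 3, Saline rat 2 or Saline rat 3. None of the other 21 Hox genes tested had an unadjusted p under 0.05, Hoxd8 being at -0.23 and Hoxc10 at -0.21.

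The promoters of these neighbours are shown because the CNO effect of both genes was lower in laminae I-II and because each holds the letters CACGTG (an E-box, the same on both strands) close to its start. Below are the 250 bases before each RefSeq start, on the plus strand of the GRCr8 build, for Hoxd10 at chr3:80001697-80001946 and Hoxd9 at chr3:80007756-80008005, with the E-box in capitals.
Hoxd10: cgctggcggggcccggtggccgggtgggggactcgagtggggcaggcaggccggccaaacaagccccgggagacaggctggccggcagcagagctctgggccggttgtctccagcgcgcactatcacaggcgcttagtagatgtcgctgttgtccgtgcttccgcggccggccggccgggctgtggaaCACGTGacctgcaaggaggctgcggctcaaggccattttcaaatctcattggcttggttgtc
Hoxd9: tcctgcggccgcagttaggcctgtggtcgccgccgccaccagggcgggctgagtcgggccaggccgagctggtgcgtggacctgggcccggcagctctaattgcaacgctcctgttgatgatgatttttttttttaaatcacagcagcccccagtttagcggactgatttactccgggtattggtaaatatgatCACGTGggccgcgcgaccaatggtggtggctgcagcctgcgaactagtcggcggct
The E-box begins at position -62 for Hoxd10 and -56 for Hoxd9, counted from the start. Of 27457 windows from 250 bases before to 50 after a start, 1 per gene symbol, 6.63% held these letters, as did 9.19% of the windows of tested genes, and of the called genes with a window, 3 of 23 on the lower side and 2 of 14 on the higher side did. Such a match is a description of letters only.

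Vgf, a neuropeptide precursor that neuronal activity induces, was the 1 gene called of 21 immediate early and activity-induced genes (4.76%, against 0.429% of all genes tested). It measured 43.4, 38.2 and 37.99 CPM in CNO rats, against 53.2, 59.2 and 44.7 CPM in Saline rats, in laminae I-II. In laminae III-VI it measured 121, 139 and 104 CPM in CNO rats, against 77.5, 104 and 117 CPM in Saline rats. CNO rats were below Saline rats in laminae I-II and overlapped with them in laminae III-VI, and the interaction was -0.67 (SE 0.14, adjusted p = 0.0348). The call was lost without CNO rat 2, CNO rat 3 or either of Saline rats 1 and 2, with adjusted p up to 0.316. Fos, the usual marker of recently active neurons, measured 16.01, 19.95 and 19.5 CPM in CNO rats, against 21.1, 26.5 and 20.4 CPM in Saline rats, in laminae I-II. Its deep values were 23.7, 26.2 and 25.5 CPM in CNO rats, against 21.5, 30.5 and 24.6 CPM in Saline rats. The groups were apart in laminae I-II only, and its interaction of -0.28 was not called (unadjusted p = 0.0725, adjusted p = 0.595). Egr1 and Arc stood at 0.00 and 0.02. The list median was 0.00.

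Vgf and Sst moved in opposite directions, and theirs were the only windows of called genes with the full cAMP response element TGACGTCA (the same on both strands), the letters to which CREB factors bind. The first sequence is the 250 bases before the Vgf start (chr12:25277021-25277270, minus strand, GRCr8), and the second is a stretch of 30 bases around the Sst start (chr11:90461532-90461561, plus strand), with the element in capitals.
Vgf: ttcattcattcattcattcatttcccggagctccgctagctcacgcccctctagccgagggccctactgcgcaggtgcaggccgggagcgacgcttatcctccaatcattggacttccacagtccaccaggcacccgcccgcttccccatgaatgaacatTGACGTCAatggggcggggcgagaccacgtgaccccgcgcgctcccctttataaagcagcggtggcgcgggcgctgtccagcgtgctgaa
Sst: ggggcgcctccttggcTGACGTCAgagaga
The element begins at position -90 in Vgf and at position 3 in Sst, counted from the RefSeq start. It was present in 1.89% of all 27457 windows and in 3.05% of the 9965 windows of tested genes. Of the 59 called genes, 37 had a window, 14 on the higher side and 23 on the lower side. A TATA box (TATAAA, either strand) was in 2 of the 14 and 4 of the 23, against 14.3% of all windows and 6.51% of those of tested genes.

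The receptors through which oxytocin acts gave no layer-dependent change detectable at this depth. Oxtr, the oxytocin receptor, had 16, 26 and 20 raw counts in I-II CNO libraries, against 14, 16 and 25 in I-II Saline libraries, and at most 3 counts in any deep library. Its interaction of -0.59 (SE 0.85) was not called. Avpr1a, the vasopressin receptor that oxytocin can also bind, had an interaction of 0.09 (SE 0.46), which turned to -0.53 without CNO rat 3 and to -0.14 without Saline rat 2. Oxt and Avp themselves had at most 6 counts in a library and were not tested. Adrenergic and serotonin receptors, the targets of the other descending pain pathways, gave 0 calls of 8 and 0 of 10 with edgeR, none with an unadjusted p under 0.05. Opioid genes gave 0 of 8, with Oprm1 alone at an unadjusted p under 0.05, and GABA-A receptor subunits gave 0 of 13, with 3 under that value (23.1%, against 9.26% of all genes tested). DESeq2 and limma-voom called 0 genes in these lists too.

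Several genes called in 1 layer showed no call for a difference between layers. Of the 19 genes called in laminae I-II, 7 were also called in the interaction, as were 8 of the 18 called in laminae III-VI. C3 was lower with CNO in both layers, at -0.86 (adjusted p = 0.0456) in laminae I-II and -1.43 (adjusted p = 0.0109) in laminae III-VI. It measured 22.5, 17.04 and 16.6 CPM in CNO rats, against 41.5, 79.8 and 32.4 CPM in Saline rats, in laminae III-VI, and its interaction was 0.55 (adjusted p = 0.33). Myoc, a meningeal protein, fell by 2.56 on the log2 scale in laminae I-II with an interaction of -2.43 (adjusted p = 0.0967), and it had too few counts to be tested in laminae III-VI alone. Chodl, which marks a set of motor neurons, had a CNO effect of -1.63 (adjusted p = 0.0157) in laminae III-VI and an interaction of 1.45 (adjusted p = 0.106). Sncg, a synuclein of large neurons, had a CNO effect of 0.66 (adjusted p = 0.00968) in laminae III-VI and an interaction of -0.51 (adjusted p = 0.106). The interactions of Myoc, Chodl and Sncg had unadjusted p of 0.000831, 0.000973 and 0.000988, and the layer differences of the CNO rats and the Saline rats did not overlap for any of these 3 genes. Leaving out single libraries left 3 to 29 calls in laminae I-II and 0 to 93 in laminae III-VI, with the lowest counts without I-II CNO 2 and III-VI CNO 3.

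Apart from the Schwann cell and astrocyte lists described above, glial, vascular and housekeeping lists gave few or 0 calls, by edgeR, DESeq2 and limma-voom alike where edgeR gave 0. Endothelial cells had 0 called of 12 with none at an unadjusted p under 0.05, microglia and macrophages 0 of 16 with 2, oligodendrocytes 0 of 16 with 4, and oligodendrocyte precursors 0 of 5 with none. Such a p held for 12.5% of the microglial and 25% of the oligodendrocyte list, against 9.26% of all genes tested. Microglial genes had medians below 0 in both layers, -0.23 for laminae I-II against -0.31 for laminae III-VI, and complement genes -0.22 and -0.36. Of 62 ribosomal protein genes 0 were called and 1 had an unadjusted p under 0.05, and of 70 genes of oxidative phosphorylation encoded in the nucleus 1 was called, Ndufb7, at -0.41 (SE 0.09, adjusted p = 0.047). The Ndufb7 call held in 1 of the 6 fits that left out 1 rat, with adjusted p up to 0.276. DESeq2 called 0 of these 70, as did edgeR with library totals alone. Hba-a2_1, one of several near-identical haemoglobin genes between which reads may be split, was called at -0.51 (SE 0.09, adjusted p = 0.00836). AABR07000398.1, a coding gene model with no symbol, reached 15025, 15423 and 19474 CPM in CNO rats, against 8068, 9443 and 15246 CPM in Saline rats, in laminae III-VI, and was called at -0.94 (SE 0.16, adjusted p = 0.00512). The calls of Hba-a2_1 and AABR07000398.1 were each lost without CNO rat 2 or CNO rat 3, with adjusted p up to 0.0679 and 0.092. LOC100910143 had the largest value, 4.52 (SE 1.02, adjusted p = 0.047), at levels of 5.68, 2.15 and 0.143 CPM in CNO rats, against 0, 4.79 and 0 CPM in Saline rats, in laminae I-II and 0.786, 0.501 and 0 CPM in CNO rats, against 2.79, 4.12 and 10.3 CPM in Saline rats, in laminae III-VI, with 3 libraries at 0, so that its size rests on libraries with few counts.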

How the data were processed

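The authors mapped reads with CLC Genomics Workbench to the rn6 rat genome and deposited total counts per gene for 32623 genes in the 12 libraries, after rRNA depletion and a stranded kit for low RNA input. Those raw counts were used as deposited. The quantile-normalised columns and the columns of the authors' own comparisons (p-values and fold changes) were not used.

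Genes were kept by filterByExpr (minimum count 10, minimum total count 15) and scaled by TMM in edgeR 4.0.16 (R 4.3.3). The quasi-likelihood model held the rat as a block, the layer, and the CNO effect in its difference between layers, with Benjamini-Hochberg adjustment at 0.05 over all genes tested. Each layer was also tested by itself without a block. The layer difference of a rat is on log2 CPM with a prior count of 2. DESeq2 1.42.0 and limma 3.58.1 gave alternatives. Deviations from the group mean correlated between same-numbered libraries of a treatment (0.100 to 0.172) and not between differently numbered ones (-0.120 to -0.019). Deviations cancel out within a group, so positive values for same-numbered pairs push those of the other pairs below 0. The values of differently numbered pairs are therefore not separate evidence of pairing. The labels do not tie the numbers to rats, so pairing is an assumption, and where the libraries of a group come from separate rats rests on the study's account.

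Members and gene lists were chosen with earlier results of these data known. The named genes are the 20 called genes of smallest p, the 8 of smallest p in each direction among genes with a symbol whose rats do not overlap, up to 2 per list, up to 8 called per layer, and a fixed set (Avpr1a, Fos, Gad1, Gad2, Oxtr, Pax2, Slc32a1). Other genes were named after their values were seen, and the results of a few genes under these rules are not reported here. Gene positions are those of Rnor 6 in the files, and promoter sequences are from RefSeq (GRCr8).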

Additional observations from a re-analysis of the deposited data

Results flagged for a closer look

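Of the 59 called genes, 57 are given here because the test of the difference between the layers' CNO effects passed its threshold for each, and groups of 3 libraries were too small for a test of single outlying samples. Values are log2 interactions, from edgeR's quasi-likelihood test with the rat as a block.

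The CNO effect was lower in laminae I-II for these members of the gene lists. The neurofilament, neuronal and fast firing lists held Nefm -0.62, Nefh -0.48, Nefl -0.41, Stmn2 -0.38, Tubb3 -0.33 and Syt2 -0.38. The Schwann cell list held Pmp22 -1.68, Prx -1.86 and Pmp2 -2.60, and the fibroblast list Aldh1a2 -2.03, Dcn -1.23, Col1a1 -1.21 and Lum -1.87. The Hox genes gave Hoxd10 -2.74 and Hoxd9 -1.26, and other lists gave Glra1 -0.34, Vgf -0.67 and Ndufb7 -0.41. Genes of no list on this side were Spp1 -1.27, Rph3a -0.27, Sncb -0.31, Ahnak2 -0.78, Igfbp6 -1.74, Ctgf -1.21, Fstl1 -0.80, Slit2 -0.51, Spock2 -0.28, Apod -0.27, Fgf1 -1.49, Gas2l3 -1.96, AABR07000398.1 -0.94, Preb -0.92, Fam212b -0.65, Bag3 -0.60, Hba-a2_1 -0.51, LOC100911625 -0.46 and Ccdc92 -0.35. Without Saline rat 3 Gas2l3 was at -1.35, and without Saline rat 1 LOC100911625 was at -0.28.

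The CNO effect was higher in laminae I-II for the list members Sst 0.78, Ebf3 0.46, Gria2 0.32, Slc1a3 0.39 and Myh11 0.92. Genes of no list on this side were Hpcal4 0.85, Scn2a 0.44, Scn3b 0.40, Cacna1e 0.36, Cadps2 0.49, Unc13c 0.28, Pam 0.32, Hap1 0.35, Marcks 0.40, Pitpnm3 0.48, Sulf1 1.21, Itih3 0.40, Ttyh1 0.25, the lincRNA AABR07026473.1 0.93 and LOC100910143 4.52. LOC100910143 stood at 0 CPM in 3 libraries, and its value ran from 3.28 to 11.04 over the fits that left out 1 rat.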

How the results depend on the processing

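The CNO effect differed between layers for 59 genes, against 2 with no replicate block, 3 with the rat as a random effect (limma-voom, chosen after seeing the data, consensus correlation 0.228), 23 by DESeq2 with the replicate block and 164 with no filter, each a count over all genes tested. limma-voom with the block gave 69, limma on the layer differences of each rat 53, RLE factors 66, library totals alone 53 and a filter of 1 CPM in 3 libraries 62. Leaving out 1 rat gave 14 (without CNO rat 3) to 71 (without Saline rat 1), with 20 without CNO rat 2. The replicate numbers gave pairing in that each library deviated most like the one with its own number, and one pair, Saline 2, fell just short of a correlation of 0.1 (0.09999). In laminae I-II, CNO changed 19 genes, against 9 by DESeq2, 131 with no filter, 78 with the replicate number as a block and 3 to 29 without 1 library. In laminae III-VI it changed 18 genes, against 25 by DESeq2 (23 up and 2 down, sharing 6 of the 18), 112 with no filter, 194 with the replicate block, 0 in a fit of all 12 libraries by edgeR (1191 at an unadjusted p under 0.05) and 0 to 93 without 1 library (0 without CNO 3, 93 without Saline 3). The difference in layer distance was 0.712 with the median over markers, against 0.526 with the mean, and 0.433 to 0.580 without 1 rat. Leaving out 1 rat moved Pax2 between -0.290 and 0.054 (above 0 without CNO rat 2) and Avpr1a between -0.531 and 0.375 (-0.144 without Saline rat 2). Counts of layer differences stayed between 7897 and 9048. The cause of these changes was not tested. Genes near 1 CPM rest on few reads in libraries of this depth.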
